A study of Mus musculus with 4 samples.

Results

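Receptor genes of the interleukin-6 and interleukin-12 families were examined in lists of differentially accessible chromatin from mouse T helper cells. The genes were Il6ra, Il6st, Il12rb1, Il12rb2 and Il27ra, with Ankrd55, which adjoins Il6st on chromosome 13. They were chosen by family and position with earlier counts from these same lists in view, and a region enters only because it was listed, so the counts below describe these genes and were given no test. A region belonged to a gene when its midpoint lay inside the gene, or lay outside all genes and nearest to a start or end of it within 100 kb. By this rule 114 of 92372 listed regions belonged to the 6 genes. Merging those that overlapped by at least 1 bp left 59 of 52537 regions, of which 21 belonged to Ankrd55, 13 to Il6st, 12 to Il6ra, 8 to Il12rb2, 4 to Il12rb1 and 1 to Il27ra.

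ATAC-seq, in which a transposase cuts and tags open DNA, had been applied to 4 populations sorted from mice that had been sensitized and challenged with house dust mite, a common asthma allergen. By their titles all are from day 15. They were Th2 cells (CD3+CD4+CD44+ST2+CD30L+), other effector cells (CD3+CD4+CD44+ST2-CD30L+), regulatory T cells (Treg, CD3+CD4+CD25hiCD30L-) and naive T helper cells (CD3+CD4+CD44loCD62Lhi). The protocol takes naive cells from mLN, a lymph node, and the other 3 populations from lung and airways, so a naive cell state and its tissue cannot be told apart, although the naive samples' source label names lung and airways too. Descriptions of the other effector and naive samples carry D10, a further conflict in the labels. All mice received the mite. The labels state 3 biological replicates of 1000 cells per population, whereas the lists analysed here hold 1 log2 fold per region and pair of populations, with no replicate value, count or p-value, so depth is unknown and no fold carries an error. Sorted cells are bulk samples, in which fewer cells with an open site and less opening per cell cannot be told apart.

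Interleukin-6 binds the chain encoded by Il6ra and signals through gp130, the chain encoded by Il6st, which the receptors of several related cytokines share. The interleukin-27 receptor pairs gp130 with the chain encoded by Il27ra. The interleukin-12 receptor pairs the chains encoded by Il12rb1 and Il12rb2, and Il12rb1 also pairs with Il23r in the interleukin-23 receptor. These receptors act through JAK kinases and STAT factors: STAT3 is the main factor of interleukin-6 and STAT4 that of interleukin-12, the cytokine of Th1 development, and loss of the Il12rb2 chain is a known feature of Th2 commitment. Ankrd55 encodes an ankyrin repeat protein.

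The regions at the start sites of Il6st, Il12rb2 and Il6ra all had Th2 cells above other effector cells, and their sequences are shown because most regions elsewhere in Il6st and Il12rb2 had naive cells as the higher population instead. Each stretch runs from 250 bases before to 50 bases after the start in the RefSeq promoter table (build GRCm38.p6), which held 3 of the 6 genes. Ankrd55, Il12rb1 and Il27ra were not among them, so the statement on start sites does not cover these genes. Capitals mark matches to 5 motifs searched on both strands: TTCNNNGAA, the GAS motif bound by STAT factors, then AGATAA for GATA factors, TGANTCA for AP-1, TGTGGT for Runx and ACTTCCT for ETS factors. A match describes the letters and is not shown to be bound.

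Il6st, chr13:112463820-112464119, plus strand: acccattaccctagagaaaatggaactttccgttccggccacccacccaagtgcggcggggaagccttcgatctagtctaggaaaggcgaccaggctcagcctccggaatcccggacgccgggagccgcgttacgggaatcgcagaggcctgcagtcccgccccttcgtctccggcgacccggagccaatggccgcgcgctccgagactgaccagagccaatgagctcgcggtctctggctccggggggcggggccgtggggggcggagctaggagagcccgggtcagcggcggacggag

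Il12rb2, chr6:67376139-67376438, minus strand: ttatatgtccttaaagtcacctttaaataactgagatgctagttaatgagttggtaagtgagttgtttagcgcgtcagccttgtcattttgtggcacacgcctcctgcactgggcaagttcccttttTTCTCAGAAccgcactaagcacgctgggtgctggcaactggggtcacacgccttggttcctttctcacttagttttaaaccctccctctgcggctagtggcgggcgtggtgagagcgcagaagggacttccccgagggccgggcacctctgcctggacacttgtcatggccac

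Il6ra, chr3:89913147-89913446, minus strand: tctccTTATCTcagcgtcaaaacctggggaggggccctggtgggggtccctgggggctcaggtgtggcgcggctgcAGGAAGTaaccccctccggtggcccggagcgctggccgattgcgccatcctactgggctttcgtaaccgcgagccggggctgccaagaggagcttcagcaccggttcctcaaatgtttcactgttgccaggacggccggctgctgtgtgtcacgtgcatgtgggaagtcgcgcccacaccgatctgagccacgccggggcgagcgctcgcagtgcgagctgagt

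The Il12rb2 promoter held 1 GAS match, TTCTCAGAA, at bases 128 to 136 of the stretch; 8.3% of all 32851 promoters in the table held such a match. The Il6ra promoter held 1 ETS match, read on the opposite strand as AGGAAGT, and 1 GATA match, read on the opposite strand as TTATCT. Of all promoters, 9.35% held an ETS match and 11.2% a GATA match. The Il6st stretch held none of the 5 motifs, of which AP-1 and Runx were found in 7.81% and 16.8% of promoters. GC content was 68.3% for Il6st, 66.0% for Il6ra and 53.0% for Il12rb2, beside a median of 52.7% over all promoters.

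All 3 promoters lay wholly inside a region with Th2 above other effector cells, a direction whose regions overlapped 27.4% of the promoters in the table. Those of Il6st and Il12rb2 also lay inside a region higher in Th2 than in Treg cells, which overlapped 1.12% of promoters. That of Il6ra alone lay inside a region with Treg above other effector cells, which overlapped 24.6%. These shares count any overlap with a promoter, a looser measure than a promoter lying wholly inside a region.

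In all 6 lists a region was included only with a sizeable fold: the smallest absolute value in a list ranged from 3.41 to 3.95 in the authors' deposited table. A pair of populations that no list separates is therefore not shown to be equal. Where 1 population was listed over 2 others at the same coordinates, the difference between the folds is the difference between the lower populations. Over all lists 15999 of 22761 such differences (70.3%) took the most frequent value of their trio of populations within 0.01, and at the 6 genes 33 of 37 did (89.2%). Where naive or Treg cells were higher, that value for other effector minus Th2 cells was 0.18; where Th2 or Treg cells were higher, that for other effector minus naive cells was 0.17. For other effector minus Treg cells it was 0. A distance that is the same at so many regions is not read as a measured difference between the lower populations, and a distance of 0 does not show that they were equally open. The folds at those regions are read only as the height of the higher population over the lower ones. Folds do not give the level of the lower populations, and the cause of the fixed distances was not tested.

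Naive cells were the higher population at many of these genes' regions, and Th2 cells rarely were except against other effector cells. Naive cells exceeded Th2 cells at 14 of the 59 regions (23.7%), beside 9.21% of all regions, and Th2 exceeded naive cells at 2 (3.39%), beside 9.67%. Treg cells were higher than Th2 cells at 9 (15.3%), beside 3.34% of all regions, and Th2 higher than Treg cells at 3 (5.08%), beside 6.72%. Treg cells were higher than naive cells at 6 (10.2%), beside 6.64%, and naive higher than Treg cells at 1 (1.69%), beside 5.76%. All but the first of these shares rest on counts of 9 or fewer.

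Other effector cells were lower at every region listed against them, at these genes as in the whole lists. Naive cells exceeded them at 27 of the 59 regions (45.8%), beside 33.7% of all regions. Treg cells did so at 31 (52.5%), beside 46.7%, a share near the background, and Th2 cells at 18 (30.5%), beside 53.2%. Without Ankrd55, the 38 regions of the 5 receptor genes gave 21 higher in naive (55.3%), 15 higher in Treg (39.5%) and 11 higher in Th2 cells (28.9%). Of the same 38, 10 (26.3%) had naive above Th2 cells and none had the reverse order. Treg cells were above Th2 cells at 4 of them (10.5%) and above naive cells at 2 (5.26%), the latter below the share of all regions, since 4 of the 6 regions with Treg above naive cells belonged to Ankrd55. With regions assigned only within 10 kb, the 10 table rows with Treg above Th2 cells became 5, and the 6 with Treg above naive cells became 3. The median absolute fold at the 6 genes was 6.55 for naive versus Th2 cells and 4.71 for other effector versus Th2 cells, beside 5.45 and 5.40 over all rows of the authors' deposited table.

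**Figure D1:**
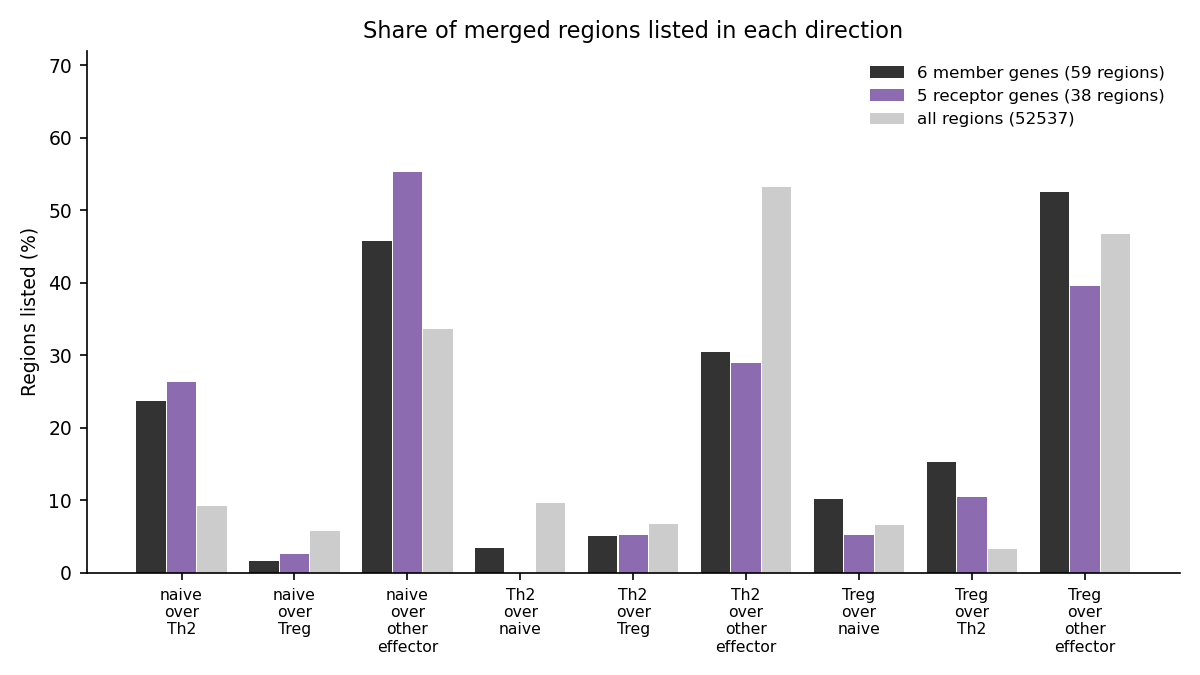
Share of merged regions listed in each of the 9 directions that hold regions (vertical axis, percent), for the 6 genes together, the 5 receptor genes without Ankrd55, and all 52537 regions. The 6 genes stand at 23.7% against 9.21% for naive over Th2 cells and at 30.5% against 53.2% for Th2 over other effector cells.

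Il6st, which encodes the shared signalling chain gp130, was split between its start site and the rest of the locus. The start-site region (chr13:112463680-112464822) was higher in Th2 cells by 7.18 over Treg cells and by 7.18 over other effector cells in the authors' deposited table. The fold over both was the same, one of the fixed distances, and no list separated naive from any other population. Th2 cells were also above other effector cells, by 6.78, at chr13:112439916-112440272, 23976 bp from the start, in the authors' deposited table. Another such region, at chr13:112426260-112426748, had 4.21 for Th2 and 5.93 for Treg over other effector cells in the authors' deposited table. Th2 cells were the higher population at no other region of Il6st.

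Naive cells were higher than other effector cells at 8 of the 13 regions of Il6st, beside 33.7% of all regions. They were higher than Th2 cells at 6, beside 9.21%. Inside the gene, the regions at chr13:112470533-112470775 and chr13:112472136-112472668 had folds of 4.26 and 6.17 for naive over Th2 cells in the authors' deposited table. At the first of these other effector minus Th2 cells was -0.87, outside the fixed distances. A neighbour at chr13:112474069-112474711 was listed only for naive over other effector cells, with 5.28 in the authors' deposited table. Of the 4 regions inside Il6st none was higher in Treg than in another population. Just past the end of the gene, 930 bp away, chr13:112507479-112508101 was higher in naive cells by 7.73 over Th2 and by 7.55 over other effector cells in the authors' deposited table. Treg cells were also higher there, over the narrower chr13:112507629-112508074, by 5.69 over Th2 and by 5.51 over other effector cells in the authors' deposited table. That end of the gene thus set naive and Treg cells above both Th2 and other effector cells, the opposite of the order at the start site for Th2 and Treg cells.

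The 80.1 kb between Ankrd55 and Il6st held 14 regions, of which 6 were assigned to Ankrd55 and 8 to Il6st only because the nearest gene changes at its midpoint. Treg cells were above other effector cells at 11 of the 14, beside 46.7% of all regions, and naive cells at 6, beside 33.7%. Naive cells were above Th2 cells at 5, beside 9.21%, and Treg above Th2 cells at 4, beside 3.34%, and at no region of the interval were Th2 cells above naive or Treg cells. The 6 regions with naive above other effector cells lay within 20.5 kb, from 112417863 to 112438341, with folds of 7.44 to 9.06 in the authors' deposited table.

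The largest naive fold at the 6 genes was in this cluster. At chr13:112424060-112425687, 39197 bp from the Il6st start, naive cells were higher by 9.24 over Th2 and by 9.06 over other effector cells in the authors' deposited table. Treg cells were higher over part of the same stretch, chr13:112424604-112425687, by 5.22 over Th2 and by 5.03 over other effector cells in the authors' deposited table. A second part of it, chr13:112424288-112424448, was listed for Treg over other effector cells alone, with 4.16 in the authors' deposited table. The paired regions chr13:112418432-112419459 and chr13:112417863-112418385, nearer to Ankrd55, repeated the order: naive over Th2 cells gave 8.41 and 8.14 in the authors' deposited table. Treg over Th2 cells gave 6.49 at chr13:112417898-112418385, and 5.25 and 4.77 at 2 parts of the larger region, in the authors' deposited table. All 3 stretches were open in naive and Treg cells relative to Th2 and other effector cells.

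The other naive regions of the cluster differed in their Treg and Th2 values. At chr13:112432842-112433715 the folds were 7.96 for naive over Th2 and 7.78 for naive over other effector cells, with 4.59 for Treg over other effector cells at chr13:112433390-112433715, in the authors' deposited table. At chr13:112427547-112427936 naive cells were higher by 6.82 over Th2 and by 7.85 over other effector cells in the authors' deposited table. Other effector minus Th2 cells was therefore -1.03 there, one of the 4 differences outside the fixed distances. At chr13:112437943-112438341 naive cells were above other effector cells by 7.44, and Treg cells by 6.79 over nearly the same stretch, in the authors' deposited table. No list held that region for Th2 cells.

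Treg cells were above naive cells at 3 regions of the interval. At chr13:112397955-112398530 Treg cells were higher by 7.72 over naive and by 7.55 over other effector cells, and Th2 cells by 3.59 over other effector cells, in the authors' deposited table. Treg minus Th2 was then 3.96 by subtraction, at the size of the smallest fold listed for that pair, and the region was not in the list of Treg versus Th2 cells. Its neighbour chr13:112397227-112397447 had 6.68 for Treg over naive and 6.50 for Treg over other effector cells in the authors' deposited table. The third, chr13:112447274-112447430, had 4.67 for Treg over naive cells in the authors' deposited table and was the only one of the 59 regions that no list of other effector cells held. At chr13:112396625-112396927, in turn, Treg cells were higher by 6.95 over Th2 and by 6.77 over other effector cells in the authors' deposited table, and not listed against naive cells.

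**Figure D2:**
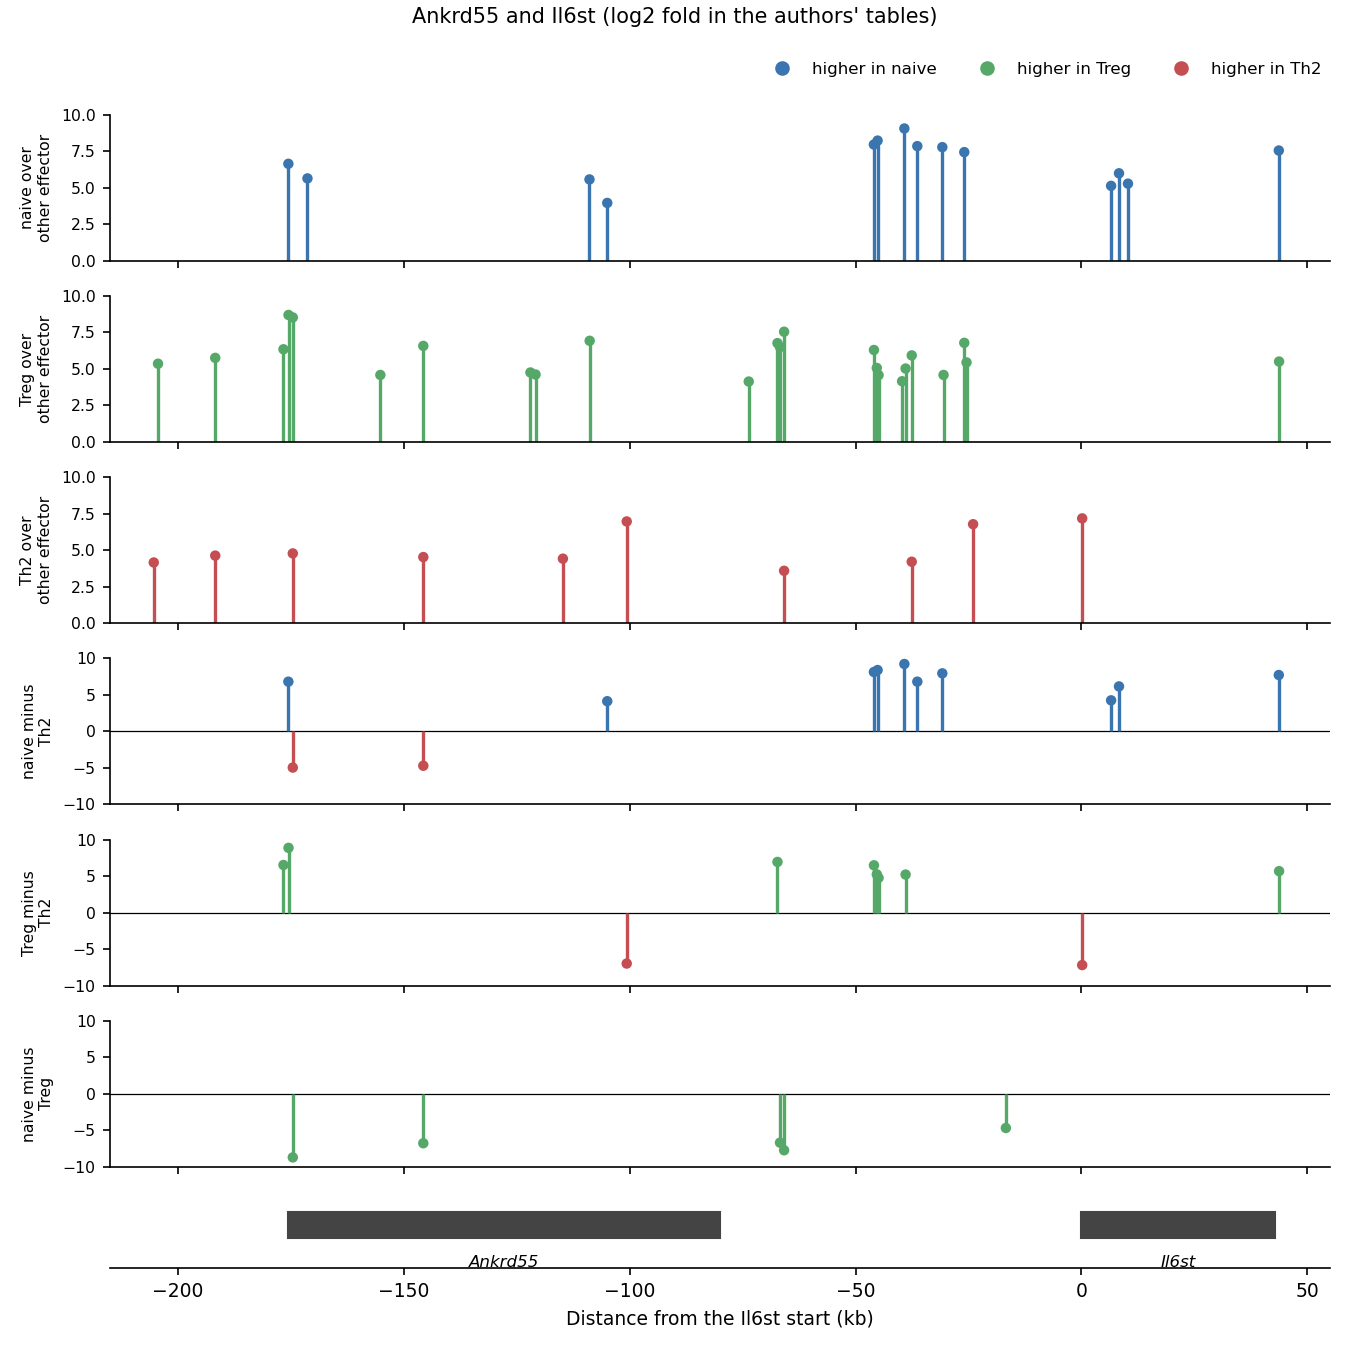
Log2 folds in the authors' lists (vertical axes) at the 34 regions of Ankrd55 and Il6st by distance from the Il6st start in kb (horizontal axis), 1 panel per pair of populations, coloured by the higher population, with genes as bars. Naive and Treg values cluster between the genes, whereas the Il6st start carries Th2 values of 7.18 only.

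Ankrd55 itself held 11 regions inside the gene and was the member with most regions. Only 166 of the 13876 genes with any region had 21 or more (1.2%), and with 95.6 kb it is also the longest of the 6 genes. Treg cells were above other effector cells at 7 of the 11, beside 46.7% of all regions. Naive and Th2 cells were so at 4 each, beside 33.7% and 53.2%. At its lower-coordinate end a pair of regions 32 bp apart differed in naive cells. The first, chr13:112287766-112289171, was higher in naive cells by 6.82 over Th2 and by 6.64 over other effector cells, and over chr13:112287838-112289171 higher in Treg cells by 8.88 over Th2 and by 8.70 over other effector cells, in the authors' deposited table. The second, chr13:112289204-112289697, had naive cells as a lower population: Treg cells were higher than naive by 8.70 and Th2 cells by 4.95 in the authors' deposited table. Over other effector cells it had 8.53 for Treg and 4.78 for Th2 in the authors' deposited table. Treg cells were a higher population at both, naive cells at the first only and Th2 cells at the second only.

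Subtraction at the second region put Treg 3.75 above Th2 cells, below the smallest fold listed for that pair. A region in the middle of the gene, chr13:112317988-112318710, showed the same order, with 6.76 for Treg and 4.70 for Th2 over naive cells in the authors' deposited table. These were the 2 regions of the 6 genes at which Th2 exceeded naive cells. A region at chr13:112363291-112363497 was higher in Th2 cells by 6.97 over both Treg and other effector cells in the authors' deposited table. Within Ankrd55 that was the only region with Th2 above Treg cells. At chr13:112358969-112359195 naive cells were higher by 4.14 over Th2 and by 3.96 over other effector cells in the authors' deposited table, and at chr13:112354805-112355493 by 5.57 over other effector cells, where Treg cells reached 6.93. Just before the gene, 1067 bp away, chr13:112287310-112287459 was higher in Treg cells by 6.53 over Th2 and by 6.35 over other effector cells in the authors' deposited table. The remaining 8 regions of Ankrd55 outside the interval were listed against other effector cells only.

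Il6ra, which encodes the chain that binds interleukin-6, had no region listed between naive and Th2 cells, and none with Th2 above Treg cells. All of its 12 regions were above other effector cells in at least 1 population: Treg cells at 7, naive cells at 6 and Th2 cells at 3. The shares of all regions were 46.7%, 33.7% and 53.2%. Its start-site region, chr3:89912226-89913496, had 7.40 for Th2 and 6.98 for Treg over other effector cells in the authors' deposited table, a difference of -0.42 for Treg minus Th2. An adjacent region at chr3:89911196-89911760 was listed for Th2 over other effector cells alone, with 7.27 in the authors' deposited table. Naive values were largest at the far end of the gene. At chr3:89872184-89872753 naive cells reached 8.83 and Treg cells 7.55 over other effector cells in the authors' deposited table, 1.28 apart. Next to it, naive cells had 7.75 at chr3:89870864-89871748 and Treg cells 7.24 over nearly the same stretch in the authors' deposited table. Beyond the gene, 5230 bp from its end, chr3:89863706-89864483 had 7.93 for naive over other effector cells, and Th2 cells had 4.59 there, in the authors' deposited table.

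In the body of Il6ra, Treg cells were above Th2 cells at 2 regions. At chr3:89882619-89883201 Treg cells were higher by 5.41 over naive, 5.42 over Th2 and 5.23 over other effector cells in the authors' deposited table, which sets them above all 3 other populations. At chr3:89904995-89905385 Treg cells were higher by 6.08 over Th2 and by 5.90 over other effector cells in the authors' deposited table. No list separated Treg from naive cells at that region. The folds over naive, Th2 and other effector cells at the first differed only by the fixed distances. Treg cells at chr3:89880163-89880579 and chr3:89906054-89906501 had 5.30 and 5.10 over other effector cells in the authors' deposited table. Naive cells at 3 further regions had 4.62 to 5.89 over other effector cells in the authors' deposited table, and no list held those 3 for another population.

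Il12rb2, the signalling chain of the interleukin-12 receptor, had naive regions through the gene body and a Th2 region at its start. Its 8 regions all lay inside the gene. Naive cells were above other effector cells at 7 of them, beside 33.7% of all regions, and above Th2 cells at 4, beside 9.21%. No list held any of the 8 for Treg cells as the higher population. The largest folds were at chr6:67347938-67348460, with 7.78 for naive over Th2, 7.60 over Treg and 7.60 over other effector cells in the authors' deposited table. This was the only region of the 6 genes with naive above Treg cells, and it set naive cells above all 3 lung populations. Naive over Th2 cells gave 6.29 at chr6:67317694-67318338, 5.77 at chr6:67296035-67296631 and 5.75 at chr6:67293825-67294751 in the authors' deposited table. At the last of these naive over other effector cells gave 6.01 in the authors' deposited table, so that other effector minus Th2 cells was -0.26.

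The Il12rb2 start region, chr6:67375763-67376468, was higher in Th2 cells by 6.49 over other effector and by 4.78 over Treg cells in the authors' deposited table. Other effector minus Treg cells was -1.71 there, the largest in size of the 4 differences outside the fixed distances. Naive cells were not listed at the start. Th2 cells were above other effector cells at 1 further region, chr6:67318612-67318827, by 3.84 in the authors' deposited table, where naive cells had 4.09. Naive cells at 2 others had 4.27 and 5.69 over other effector cells in the authors' deposited table.

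Il23r, the neighbour of Il12rb2 and the partner chain of Il12rb1, was examined for contrast and had 5 regions. Naive cells were above Th2 cells at 3 of them, beside 9.21% of all regions, and above Treg cells at 3, beside 5.76%. At chr6:67415238-67415959, 7334 bp from the gene, naive cells were higher by 4.39 over Th2, 5.69 over Treg and 6.35 over other effector cells in the authors' deposited table. Its region at chr6:67491685-67492275 lies outside the gene, 125 bp from the higher-coordinate end of Il23r. That region was higher in Treg cells by 4.43 over Th2 and by 4.25 over other effector cells in the authors' deposited table. Il31ra, next to Il6st on the other side, had 2 regions, listed for naive over other effector cells at 4.21 and for Th2 over other effector cells at 4.40 in the authors' deposited table.

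**Figure D3:**
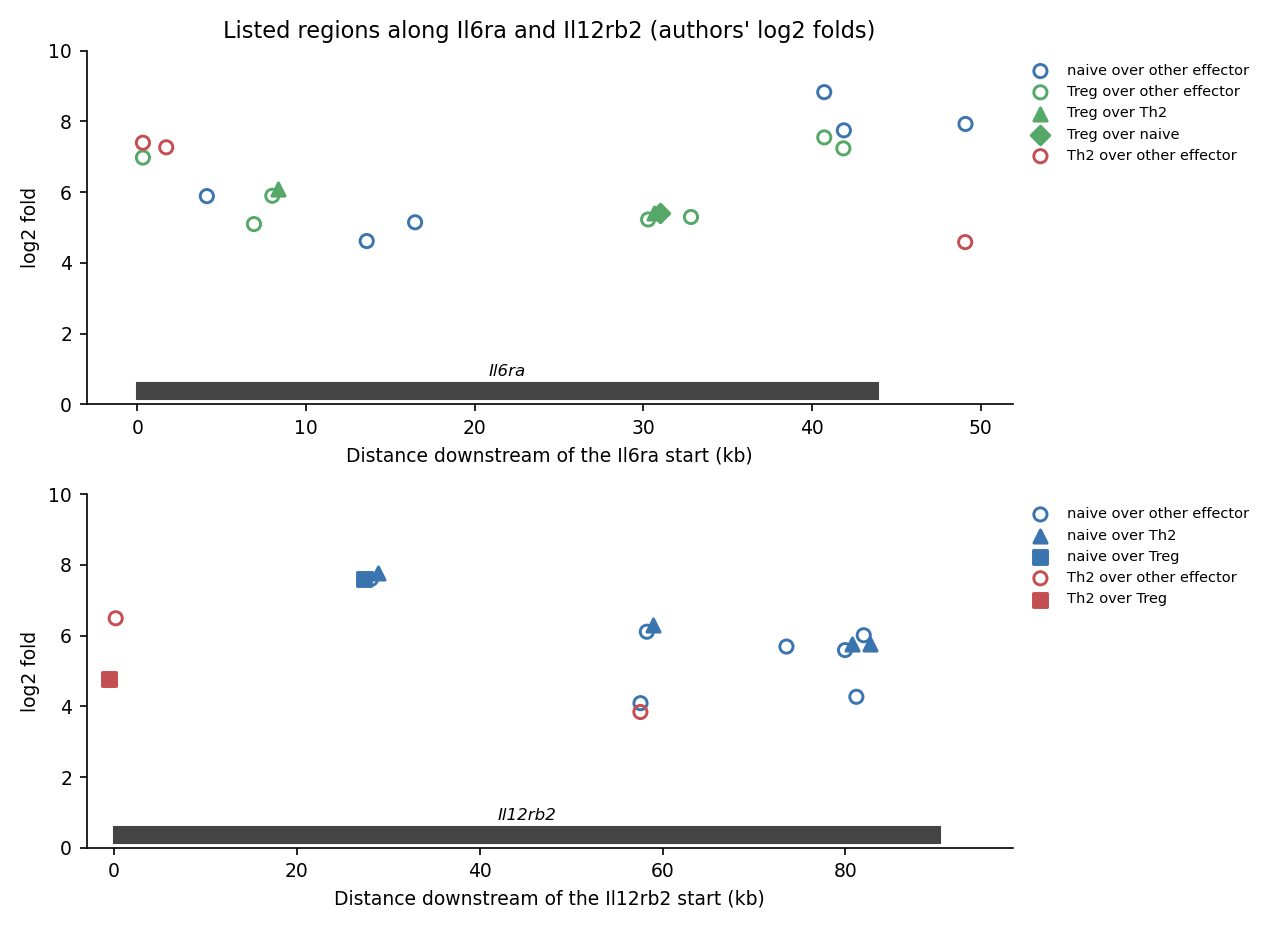
Log2 folds in the authors' lists (vertical axes) along Il6ra and Il12rb2 by distance downstream of each start in kb, coloured by the higher population, with the marker showing the lower one (filled markers are set slightly aside so that they do not hide each other). Th2 values of 7.40 and 6.49 over other effector cells stand at the starts, and naive values of up to 8.83 and 7.78 lie downstream.

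Il12rb1 and Il27ra had few regions, each listed against other effector cells alone. In Il12rb1, the chain shared by the receptors of interleukin-12 and interleukin-23, Th2 cells had 5.99 at chr8:70806572-70806971, 5.23 at chr8:70821569-70822075 and 4.14 at chr8:70816822-70817093 in the authors' deposited table. Treg cells had 5.39 at chr8:70808275-70808540, 47 bp from the lower-coordinate end of Il12rb1, in the authors' deposited table. Il27ra had 1 region, chr8:84042092-84043023, at the higher-coordinate end of the gene, with 7.45 for Treg over other effector cells in the authors' deposited table. Neither gene had a region listed for naive cells. Among the 13876 genes with any region, 30.7% had as many as Il12rb1 or more.

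**Figure D4:**
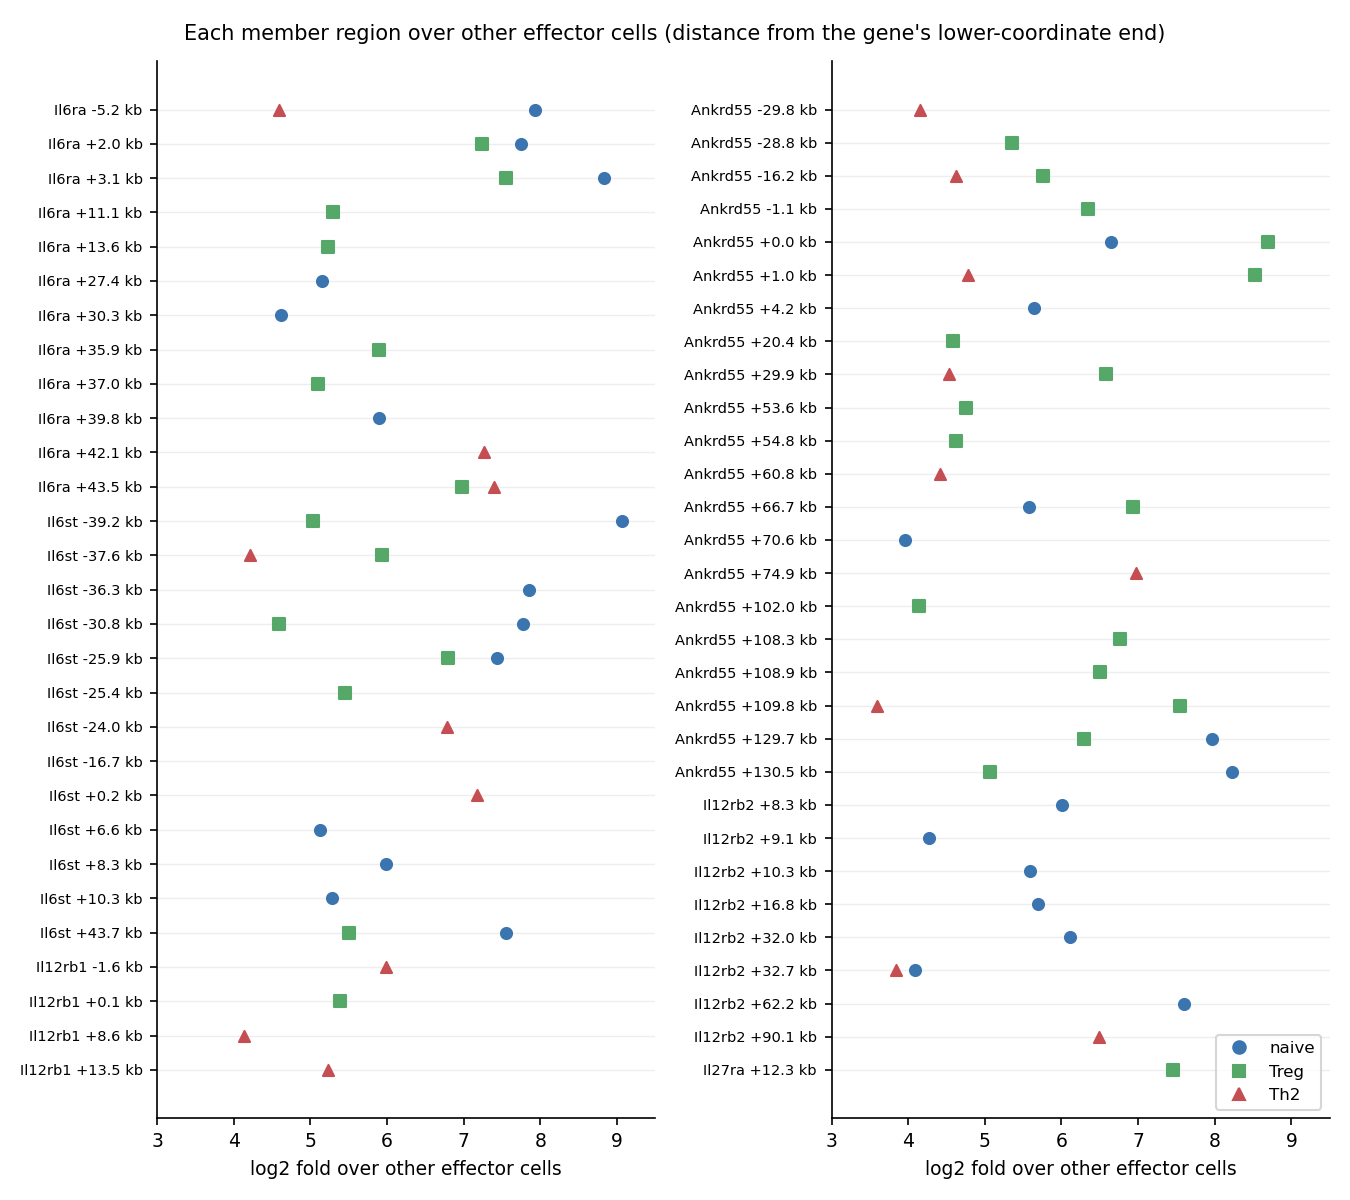
Log2 fold over other effector cells (horizontal axis) in naive, Treg and Th2 cells at each of the 59 regions, named by gene and distance of the midpoint from the gene's lower-coordinate end; where a list held 2 parts of a region the larger fold is drawn, and the Il6st region at -16.7 kb was not listed against other effector cells. Values reach 9.06 in naive, 8.70 in Treg and 7.40 in Th2 cells.

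Regions were also counted by their combination of directions, and each combination named here occurred in more than a single gene. At 5 of the 59 regions (8.47%) both naive and Treg cells were above both Th2 and other effector cells, beside 0.622% of all regions. All 5 belonged to Ankrd55 or Il6st, which adjoin each other, and some lay in the interval between them. Naive cells alone were above Th2 and other effector cells at 7 regions (11.9%), beside 5.12% of all regions. Th2 and Treg cells together above other effector cells, with nothing else listed, made up 3 regions (5.08%), beside 15.9% of all regions. Th2 cells above Treg and other effector cells made up 3 regions (5.08%), beside 3.84%. These were the starts of Il6st and Il12rb2 and the region at 112363291 inside Ankrd55.

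Regions at gene ends were few. The midpoints of 8 of the 59 regions were at most 1 kb from a gene end. Naive cells were above other effector cells at 2 of these 8 and at 25 of the 51 others, and above Th2 cells at 2 and 12. Th2 cells were above other effector cells at 4 of the 8 and at 14 of the 51, and Treg cells at 6 and 25. With 8 regions these counts do not separate the positions. The gene table gives no exons or untranslated regions, so no finer position than inside or outside a gene is given. Region width did not set these genes apart, with a median of 492 bp beside 497 bp for all regions.

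The wider pathway held 30 genes for cytokines, further receptor chains, kinases, STAT factors and inhibitors, of which 24 had a region and together 154 regions. Naive cells exceeded Th2 cells at 19 of the 154 (12.3%), beside 9.21% of all regions, and Th2 exceeded naive cells at 19 (12.3%), beside 9.67%. Treg over Th2 cells held 4 (2.60%), beside 3.34%, and Th2 over Treg cells 10 (6.49%), beside 6.72%. Over other effector cells there were 62 (40.3%) for naive, beside 33.7%, 71 (46.1%) for Th2, beside 53.2%, and 71 (46.1%) for Treg cells, beside 46.7%. Treg exceeded naive cells at 15 (9.74%), beside 6.64% of all regions, and naive exceeded Treg cells at 11 (7.14%), beside 5.76%. The share of Treg over naive cells was near the 10.2% of the 6 genes. That of naive over other effector cells lay between all regions and the 45.8% of the 6 genes. The other shares were nearer to those of all regions, and no difference from the 6 genes was tested.

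Single pathway genes differed in direction, in counts to be read beside the shares of all regions given above. Il6, the cytokine of Il6ra and Il6st, had 6 regions, 5 with Th2 above naive cells, 2 with Th2 above Treg cells and none with naive cells as the higher population. Lifr, the chain that pairs with gp130 for leukemia inhibitory factor, had 5 regions, all with Th2 above other effector cells and 2 with Th2 above naive cells. Jak1, the kinase bound by gp130, had 28 regions. Naive cells were above other effector cells at 21 of these, beside 33.7% of all regions, and above Th2 cells at 6, beside 9.21%. Jak2 had 14, with Th2 above naive cells at 5 and Treg above naive cells at 4. Stat3 and Stat4 had 10 and 11 regions, of which 4 each were higher in Treg than in naive cells, beside 6.64% of all regions. Treg cells were above other effector cells at 8 and 9 of them, beside 46.7%. Socs3, an inhibitor induced by interleukin-6, had 8 regions, 3 of them higher in Th2 than in Treg cells and 1 higher in Treg than in Th2 cells. Naive cells were above other effector cells at 3 of the Socs3 regions.

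Markers of the sorted cells were listed mostly, but not always, in the direction of their labels. Their counts are to be read beside the shares of all regions given above. Il1rl1, which encodes the sort marker ST2, had Th2 above naive cells at 11 of 18 regions and Il13 at 5 of 6. The share of all regions was 9.67%. Treg cells were above Th2 cells at 7 of 27 regions of Ikzf2 and 3 of 6 of Foxp3, beside 3.34% of all regions. Il1rl1 did not separate Th2 from Treg cells, with 0 regions for Th2 over Treg cells and 9 for Treg over naive cells. Gata3, the Th2 lineage factor that Treg cells of tissues also express, had 11 regions. Of these, 0 had Th2 above naive cells and 1 had Treg above Th2 cells. Over other effector cells, Gata3 had 5 for Th2 and 9 for Treg cells. Il4 and Il5 had 0 regions for Th2 over Treg cells and Il13 had 1. Ctla4 had 19 regions, 4 for Treg over Th2 cells, and 3 each for naive over Th2 and Th2 over naive cells. Of the naive markers, Lef1 had naive above Th2 cells at 19 of 39 regions, Ccr7 at 7 of 15 and Tcf7 at 6 of 15. The share of all regions was 9.21%. Each of these genes had 0 in the other direction, but the direction of the folds had been settled from naive markers. Markers of other cells were also listed: 18 of 21 regions of B cell genes and 17 of 18 of CD8 and natural killer genes had naive above other effector cells, beside 33.7% of all regions. Of 21 regions of myeloid genes 13 had Th2 above other effector cells, beside 53.2% of all regions, and 11 had naive above other effector cells. Epithelial genes had 9 regions, with naive cells above other effector cells at 5 and Th2 cells at 5. Of these other-cell markers Lyz2, Ncr1, Sftpc and Krt8 had none. The part of such cells in the naive and Th2 values above was not tested.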

How the data were processed

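The 6 deposited tables hold, per region, a position and a log2 fold that the authors made with DiffBind, per the submitters' processing notes, read here as the first-named over the second-named population. The sources used here do not give aligner, peak caller, read shift, normalization, threshold or version. The notes name build mm9, but 21.9% of merged regions were at most 1 kb from an end of a GRCm38.p6 gene, against 4.20% to 6.21% after shifts of 10 to 1000 kb either way, so coordinates are given as GRCm38, 1-based. Folds added up exactly where a trio's 3 tables shared a region (4 regions, residual 0), which leaves the overall sign to be read from naive markers.

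Regions were assigned to 21900 protein-coding genes and merged across tables (Python 3.11.15, pandas 2.3.3), tested on simulated data. Pathway and marker lists were set by function. The members and lists were chosen with earlier results of these data known. Named are all 6 members with, for each comparison, the region of largest fold, those in 3 or more tables, all rows of members with 10 or fewer, 2 neighbouring genes and the 3 genes most alike; further regions were named after their values were seen. Likeness between genes was Bray-Curtis similarity of row counts before merging over 9 directions, for members with at least 10 rows. Motif letters were matched in the RefSeq promoters; protein sequences were not used here, and values of some listed genes are not reported here. The tables hold no replicates, so nothing was tested. Alternatives were distance, threshold, overlap and merging rules.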

Additional observations from a re-analysis of the deposited data

How the results depend on the processing

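Counts of listed regions were unchanged in all 9 directions with regions assigned within 50 kb and under any overlap with a member gene. The 50 kb limit could not change them, because every region assigned to these genes lay within it. The overlap setting kept regions outside the genes, so it could add regions but not remove any, and it added none. With regions assigned only within 10 kb, 4 directions moved by more than 1.5 times. Naive over Th2 cells went to 9 from 14, Treg over naive cells to 3 from 6, Treg over Th2 cells to 5 from 10 and Treg over other effector cells to 19 from 33. By construction that setting leaves out most of the interval between Ankrd55 and Il6st. Without the 25% of each table with the smallest absolute folds, Th2 over naive cells moved to 1 from 2 and Th2 over other effector cells to 11 from 18. These counts are of table rows before merging, and naive over Th2 cells exceeded the reverse under every setting run. Merging only where at least 50% of the shorter region overlapped left 59 regions, and requiring identical start and end gave 35 regions in 2 or more tables against 34. The median fold inside a member gene ranged from 5.23 to 7.18 across comparisons and moved by less than 1 SD of the member folds in each. No paired analysis was possible because the tables hold no replicate values. Depth is unknown, so it was not possible to say what it limits.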

Other observations

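Genes with the most similar counts over the 9 directions were looked up for the 4 members with at least 10 rows before merging. Ankrd55 was most like Lclat1, Phlpp1 and Ctla4, a Treg inhibitory receptor gene, with Bray-Curtis similarities of 0.863, 0.857 and 0.851, where 1 would be identical counts. Il6st was most like Cdyl2 (0.915), and then Atp11b and Map3k1 (0.868 each). Il6ra was most like Slc22a5 (0.919), Arf6 (0.895) and Nup210 (0.889). Il12rb2 was most like Mab21l3 (0.909), and Klf3 and Ube2e2 each had 0.897. These likenesses describe counts in lists that share populations and libraries.

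Several other cytokine genes of the pathway had regions of their own. Lif, which encodes leukemia inhibitory factor, had 12 regions, with Th2 cells above other effector cells at 9 and Treg cells at 7. The shares of all regions were 53.2% and 46.7%. Il12a, a subunit of interleukin-12, also had 12, 8 of them with naive above other effector cells, beside 33.7% of all regions. Clcf1 had 6, with 3 higher in naive than in Treg cells, beside 5.76% of all regions. Il11, Il23a, Ebi3 and Cntf had no listed region.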
